A study of Xenopus tropicalis with 11 samples.

Results

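The centromere cores of *X. tropicalis* and the 500 kb on either side of them were described here in native chromatin of XTN-6 cells. The members are the 10-kb bins whose middle lies at most 500 kb from a given centromere centre on each of chromosomes 1 to 10, and the core of a centromere is its bins at most 50 kb from the centre. There were 1000 such bins, 100 of them in cores, among 144914 bins on the chromosomes and 145051 in all. The centres had been chosen from the excess of Cenp-a over input in these same libraries. Every ratio that contains a Cenp-a library is therefore given as a description, and so are the numbers of bins called for Cenp-a in fits across all bins. The input libraries had a part in that choice as well.

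Cenp-a is the variant of histone H3 that marks the active centromere and on which the kinetochore assembles. In vertebrates it usually sits in arrays of tandemly repeated satellite DNA, flanked by pericentromeric heterochromatin. Histone H4 is a component of Cenp-a nucleosomes and of ordinary nucleosomes alike, whereas in a Cenp-a nucleosome Cenp-a takes the place of H3.

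Native ChIP-seq was done on mononucleosomes that micrococcal nuclease had released from untreated cells. The 11 libraries were Cenp-a of replicates 1, 2 and 3, H3 of replicates 2 and 3, H4 of replicate 1, rabbit IgG of replicates 2 and 3, and input chromatin of replicates 1, 2 and 3. The Cenp-a antibody was raised against the *X. laevis* protein and cross-reacts with that of *X. tropicalis*, and input was taken from the precleared chromatin of the same replicate. All groups carry the wild type genotype of the NXR Nigerian strain, and no library was treated with an agent. The labels name XTN-6 cells as the source but whole tadpoles at NF 20 as the cell type, and they call the replicates biological where the methods of the study call them technical. The p-values below thus measure the spread between these libraries only. H4 was immunoprecipitated in replicate 1 and H3 in replicates 2 and 3, so the histone antibody and the replicate cannot be told apart. Reads were counted at any mapping quality, so a read from a repeat could be assigned to another near-identical copy. The part of this in the amount and the position of Cenp-a at a single centromere was not tested.

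Library depth, as the total count over all bins, ranged from 13576415 to 229872947 in Cenp-a, from 45198397 to 64456099 in H3, from 4053600 to 107881690 in IgG and from 42471017 to 78281804 in input, and H4 held 52219796. The median member bin had 1529 counts in Cenp-a replicate 3 and only 28 in IgG replicate 2, the extremes of depth. Values were scaled to CPM, the unit of counts relative to the library total on the chromosomes.

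The 100 core bins are 0.0690% of the chromosome bins. They took 1.57%, 0.987% and 1.31% of the counts of Cenp-a replicates 1, 2 and 3, against 0.133%, 0.153% and 0.150% of the input counts of the same replicates. The group means were 1.29 ± 0.29% for Cenp-a and 0.145 ± 0.011% for input (SD, n = 3 each). H4 replicate 1 had 0.246% of its counts in cores (Wilson 95% confidence interval 0.245 to 0.248%, counting error only). H3 had 0.167% in replicate 2 and 0.200% in replicate 3, and IgG had 0.158% and 0.160%. Each Cenp-a share lay above each share of the other libraries, and input, IgG and the histone libraries also exceeded the share of bins.

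In the summed profile the excess of Cenp-a lay within about 200 kb of the centres. Summed over the 10 chromosomes, Cenp-a over its paired input came to 11.8, 6.46 and 8.73 in the cores of replicates 1, 2 and 3, a mean ratio of 8.99 ± 2.67 (SD, n = 3). At 50 to 100 kb from the centre it was 2.26 ± 0.26, and at 100 to 200 kb it was 1.69 ± 0.16. It was 0.988 ± 0.005 at 200 to 300 kb, 1.00 ± 0.02 at 300 to 400 kb and 0.949 ± 0.017 at 400 to 500 kb, against 0.986 ± 0.004 in all other bins of the chromosomes. The intermediate values came from a few bins, since the median bin had a ratio of 1.00 at 50 to 100 kb and 0.99 at 100 to 200 kb. Replicate 1 gave the highest core ratio and replicate 2 the lowest, and input replicate 1 also had the lowest core share of the inputs. Set against IgG of the same replicate, Cenp-a was 6.26-fold in replicate 2 and 8.17-fold in replicate 3 in cores.

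**Figure D1:**
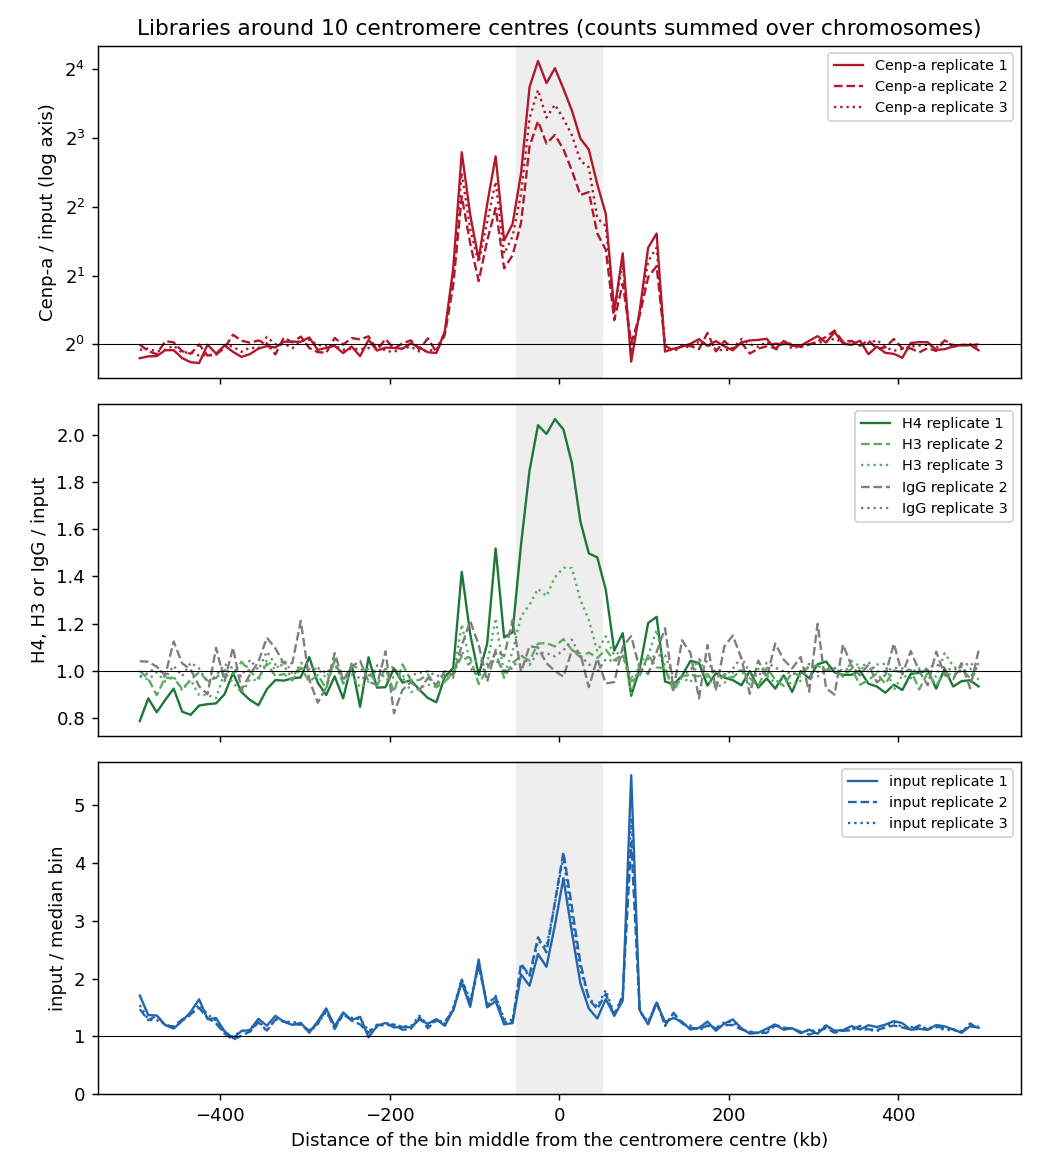
The ratio of each Cenp-a library to its input (top, log axis), of H4, H3 and IgG libraries to their inputs (middle) and the input level as a multiple of the median bin (bottom), by distance from the centre in kb, with counts summed over 10 chromosomes and the core shaded. Cenp-a ratios return to about 1 outside 200 kb, H4 replicate 1 reaches the highest core ratio of the control antibodies (1.85 over the whole core), and the single input spike right of the core is a bin of chromosome 7.

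The profile was not symmetric. On the side of the lower coordinates Cenp-a over input was 10.3 ± 3.1 within 50 kb, 3.23 ± 0.58 at 50 to 100 kb and 2.04 ± 0.24 at 100 to 200 kb. On the side of the higher coordinates the values were 7.65 ± 2.2, 1.58 ± 0.08 and 1.32 ± 0.08 (SD, n = 3 each). The higher side at 50 to 100 kb includes a bin of chromosome 7 with 36.9 times the median input. Its Cenp-a ratios were 0.81, 1.00 and 0.90 in replicates 1, 2 and 3, and its part in the asymmetry was not tested. Beyond 50 kb, 5-fold bins were found on chromosomes 7 and 8 and, at 50.4 kb, on chromosome 2. On the lower side the run of chromosome 7 reached -120.1 kb and that of chromosome 8 reached -83.5 kb, with negative distances for lower coordinates. On the higher side 5-fold bins reached 119.9 kb on chromosome 7 and 76.5 kb on chromosome 8. The sides depend on where the chosen centre falls in a block. The lower run of chromosome 7 ended at its centre, at -0.09 kb.

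Taken bin by bin, the geometric mean over replicates of the ratio of Cenp-a to input, with 0.1 CPM added to both values, was at least 5-fold in 74 members, 58 of them in cores. Over all chromosome bins, 0.0524% reached 5-fold and 0.0849% reached 2-fold. Since these values chose the members, nothing is read from that contrast. Of the members, 89 reached 2-fold, 67 of them in cores. The number of 5-fold bins was 2 on chromosome 1, 11 on chromosome 2, 7 on chromosome 3, 3 on chromosome 4, 6 on chromosome 5, 5 on chromosome 6, 15 on each of chromosomes 7 and 8, and 5 on each of chromosomes 9 and 10. The longest unbroken run of 5-fold bins had 2 bins on chromosome 1 and 14 bins on chromosome 8. No 5-fold bin lay farther than 120.1 kb from its centre and no 2-fold bin farther than 130.1 kb. The 5 bins of at least 5-fold beyond 100 kb were all on chromosome 7.

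**Figure D2:**
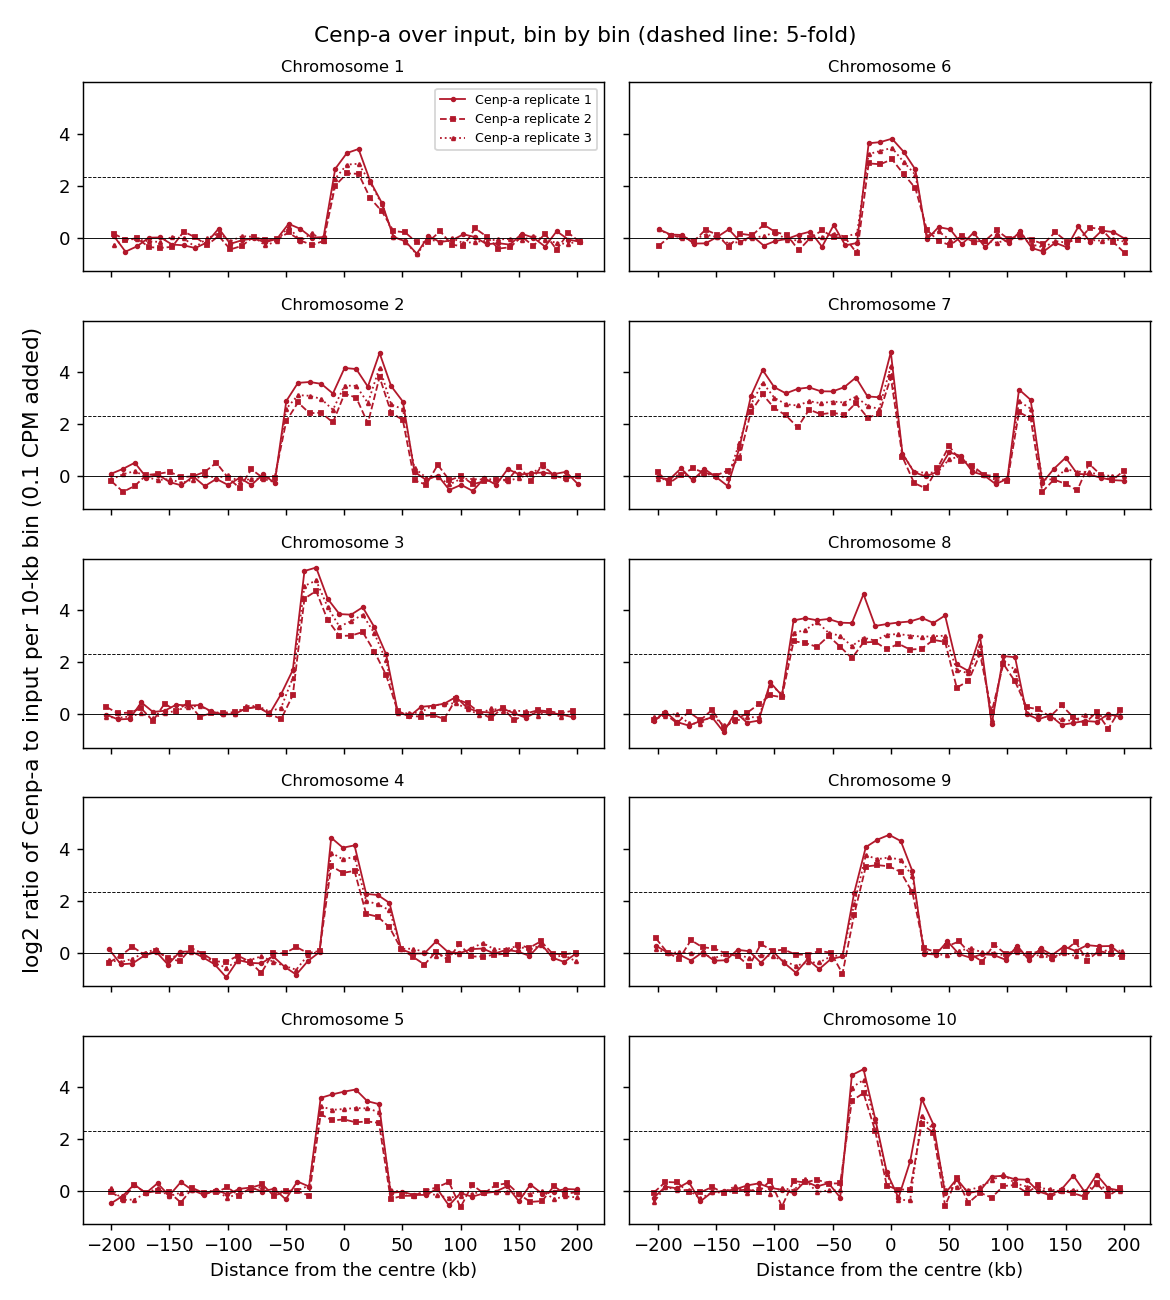
The log2 ratio of Cenp-a to input (0.1 CPM added) in each 10-kb bin within about 200 kb of the centre on chromosomes 1 to 10, with a line for each replicate and a dashed line at 5-fold. Chromosomes 1, 4, 6 and 9 have narrow stretches of 2 to 5 bins above the dashed line, chromosomes 7 and 8 have 15 each, and the stretches of chromosomes 7, 8 and 10 are interrupted.

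These 74 bins held 1.83%, 1.15% and 1.53% of the counts of Cenp-a replicates 1, 2 and 3, against 0.135%, 0.158% and 0.156% of the counts of the inputs, in 0.0511% of the bins. The other 311 members within 200 kb that stayed under 2-fold held 0.245%, 0.247% and 0.245% of the Cenp-a counts, against 0.249%, 0.243% and 0.248% of the input counts. Cenp-a over input in them was 0.996 ± 0.017 (SD, n = 3). The 74 and the 311 bins were divided by this same ratio, so nothing is read from their contrast.

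The highest bin of all members was on chromosome 3 at bases 16710983 to 16720982, at -24.0 kb from the centre. It had 537.7, 317.6 and 399.0 CPM in Cenp-a replicates 1, 2 and 3, against 10.6, 11.7 and 11.1 CPM in the inputs. H4 replicate 1 had 40.1 CPM there, H3 had 15.1 and 18.3 CPM in replicates 2 and 3, and IgG had 14.6 and 11.5 CPM. All Cenp-a values lay far above every other value, and H4 was next. The mean ratio of Cenp-a to input in this bin was 37.6 ± 11.8 (SD, n = 3), and its neighbour at -34.0 kb had a mean ratio of 32.8. Input stood at only 1.88 times the median bin in the highest bin.

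The bin with the most Cenp-a in CPM among the highest bins of the chromosomes was on chromosome 10 at bases 21201474 to 21211473. It had 992.3, 587.6 and 797.8 CPM in Cenp-a replicates 1, 2 and 3, against 38.4, 43.0 and 41.3 CPM in the inputs, and input there was 6.91 times the median bin. The highest bin of chromosome 7, at bases 60384911 to 60394910 and next to the centre, had 892.8, 471.9 and 633.0 CPM in Cenp-a, against 32.7, 33.8 and 33.5 CPM in the inputs. Both bins thus combined a high level of Cenp-a with a high level of input, and their mean ratios were 19.6 ± 6.1 and 20.0 ± 6.7 (SD, n = 3 each).

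Chromosome 1 had the lowest peak among the mean ratios of the highest bins. Its highest bin, at bases 89227366 to 89237365, had 133.9, 84.7 and 110.0 CPM in Cenp-a replicates 1, 2 and 3, against 12.5, 15.3 and 15.2 CPM in the inputs, a mean ratio of 7.78 ± 2.63. The highest bin of chromosome 9, at bases 42123438 to 42133437, had 84.4, 76.9 and 99.2 CPM in Cenp-a, against 3.55, 7.59 and 7.75 CPM in the inputs, and a mean ratio of 15.3 ± 7.0. Replicate 1, with the lowest input, stands apart there with a ratio of 23.2 against 10.0 and 12.7 in replicates 2 and 3. The highest bins of chromosomes 2, 4, 5 and 6 had mean ratios of 19.6, 15.3, 9.77 and 11.0.

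The highest bin of chromosome 8, at bases 21411474 to 21421473, rests on very few input reads. It held 171, 47 and 792 counts in Cenp-a replicates 1, 2 and 3, against 2, 18 and 28 counts in the inputs, which is 0.0457 times the median bin. Its ratio was 24.7 in replicate 1, 6.80 in replicate 2 and 7.75 in replicate 3. The first value turns on 2 input counts, or 0.0336 CPM, and on the larger 0.1 CPM added to both values. Another bin of that block, at -63.5 kb, had 171, 61 and 1149 counts in Cenp-a, with 10, 28 and 26 in the inputs. The other bins of the chromosome 8 block had higher input, up to 11.2 times the median bin at 6.47 kb from the centre, where the mean ratio was 8.88 ± 2.53.

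Most borders of the enriched stretches were steep between adjacent bins, in the same ratios that chose the members. Runs of adjacent bins of at least 2-fold numbered 14 and had 28 edges. An edge is by definition a fall below 2-fold, so each edge has some drop. On chromosome 8 neighbouring runs share the bins outside them, so the edges are not independent. In 25 edges the first bin outside was under 1.5-fold, and in 20 the log2 ratio dropped by at least 2 from one bin to the next. The median drop was 2.45 on the log2 scale, with a range of 0.31 to 3.95. The largest drop was on chromosome 10, where the ratio was 16.3 in the outermost bin and 1.02 in its neighbour. On chromosome 5 the block was flat, with log2 ratios of 3.00 to 3.27 in its 6 bins and ratios of 1.05 and 0.93 in the bins on either side.

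The 5-fold bins formed 1 run on 7 chromosomes and 2 runs on each of chromosomes 7, 8 and 10. On chromosome 7 a run of 13 bins ended at the centre, and a second run of 2 bins lay 109.9 to 119.9 kb beyond it. Its second run had ratios of 10.1, 5.49 and 7.34 in the nearer bin in replicates 1, 2 and 3. Between the runs lay the bin with the highest input of all members, at bases 60474911 to 60484910, with 36.9 times the median bin. That bin showed no excess of Cenp-a, with ratios to input of 0.81, 1.00 and 0.90 in replicates 1, 2 and 3. On chromosome 8 the bin at -93.5 kb had 8.78 times the median input and Cenp-a ratios of 1.65, 1.58 and 1.71, whereas the first bin of the block beside it had a mean ratio of 9.36. On chromosome 10 the gap between the 2 runs had low input, at 0.0986 to 0.451 times the median bin in 3 bins. The mean log2 ratio of Cenp-a to input in these bins was between -0.18 and 0.52.

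The highest and the lowest core ratios fell on the same chromosomes in each replicate. The core is a fixed window of 50 kb on either side of the chosen centre, and the enriched runs fill it to different extents. The 5-fold run of chromosome 1 had 2 bins, and the longer run of chromosome 7 ended at -0.09 kb. The part of this in the order of the chromosomes was not tested. Cenp-a over input in the core was highest on chromosome 3, at 13.0 ± 3.8, and on chromosome 10, at 12.7 ± 3.8, and lowest on chromosome 1, at 4.65 ± 1.14 (SD, n = 3 each). The other 7 chromosomes ranged from 7.64 on chromosome 6 to 9.03 on chromosome 4. Chromosomes 3, 10 and 1 ranked 1, 2 and 10 in all 3 replicates. Chromosomes 3 and 10 were close in each replicate, with 16.80 and 16.66 in replicate 1, 9.12 and 9.07 in replicate 2 and 13.05 and 12.41 in replicate 3. Among the 7 in the middle, chromosome 6 ranked 9 in all 3 replicates, and the ranks of the others changed between replicates. On each of the 10 chromosomes replicate 1 gave the highest ratio and replicate 2 the lowest, so the SD of a chromosome includes a shift shared by all.

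**Figure D3:**
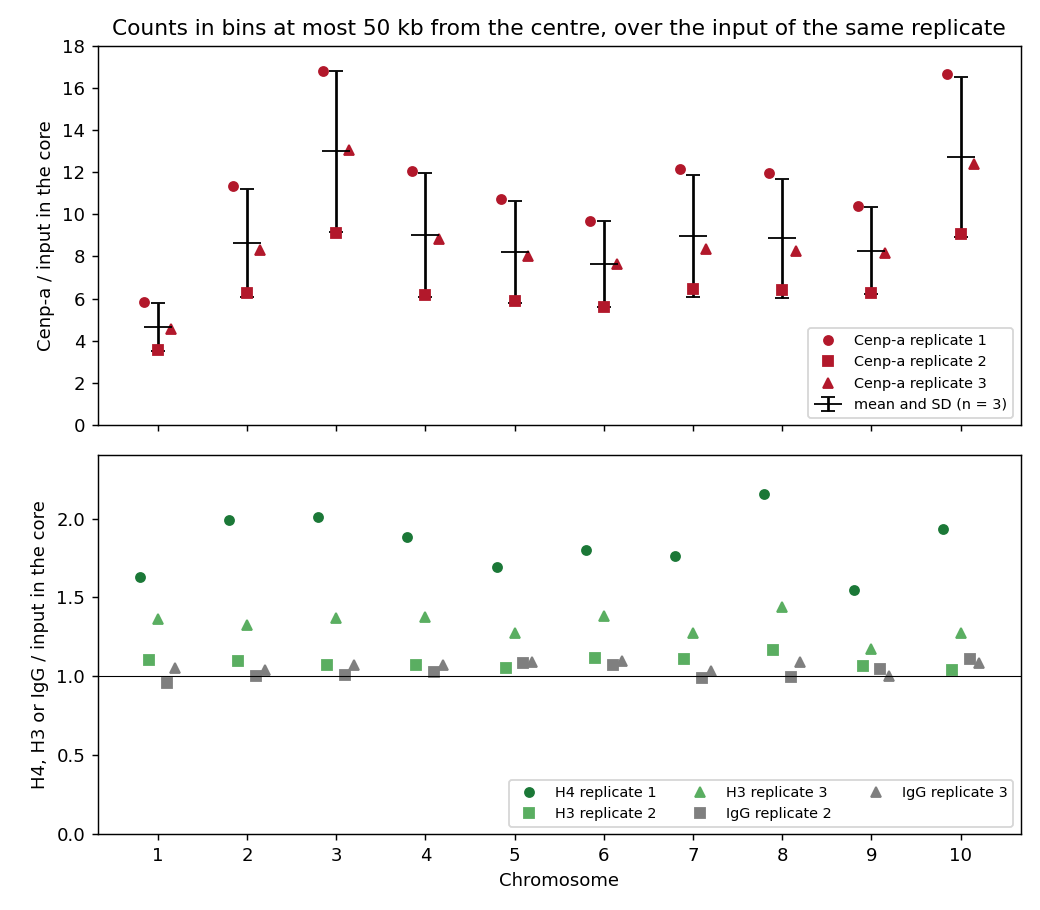
Core counts of Cenp-a (top, points for each replicate with mean and SD, n = 3) and of H4, H3 and IgG (bottom) over the input of the same replicate, for chromosomes 1 to 10. Cenp-a means run between 4.65 on chromosome 1 and 13.0 on chromosome 3, replicate 1 is the highest on every chromosome, and H4 lies above H3 and IgG on every chromosome.

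By amount within 200 kb, rather than by ratio in the core, the order was different. The window changed along with the measure, and the part of each in the new order was not tested. The excess of Cenp-a over input within 200 kb of the centres came to 1.73%, 1.02% and 1.42% of the counts of replicates 1, 2 and 3. Chromosome 7 held 18.2 ± 0.2% of this excess, chromosome 8 held 14.4 ± 0.1% and chromosome 3 held 13.7 ± 0.4%, while chromosome 1 held 2.78 ± 0.09% and chromosome 9 held 4.54 ± 0.33% (SD, n = 3 each). These shares differed little between replicates although the total excess did. Reads of any mapping quality were counted, and the part of this in the shares was not tested.

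Cores were also rich in input. In the inputs the mean core bin was 2.46 ± 0.16 times the median bin of the chromosomes (SD, n = 3), against 1.91 ± 0.05 at 50 to 100 kb, 1.19 ± 0.01 at 200 to 500 kb and 1.17 ± 0.01 in all other bins. The mean at 50 to 100 kb was raised by the chromosome 7 bin with 36.9 times the median input. Of the core bins, 36 had at least 2 times the median in every input, and 33 of these were at least 5-fold in Cenp-a. Of the other 64 core bins, 25 were at least 5-fold. The 5-fold members spanned 0.0457 to 11.2 times the median input, with 12 of them under the median. High input without Cenp-a was found as well. In 24 members with at least 2 times the median in every input, Cenp-a stayed under 2-fold. The ratio summed over them was 0.947 ± 0.068, a description, since they were picked for a ratio under 2-fold. The 4538 bins outside the windows with at least 2 times the median in every input averaged 4.83 times the median. Their ratio was 0.906 ± 0.050, and 3 of them reached 2-fold (SD, n = 3). Across the 100 core bins, the log2 ratio of Cenp-a to input and the log2 input level had a Pearson correlation of 0.48 (Spearman 0.54), a description of bins that share libraries and neighbours.

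**Figure D4:**
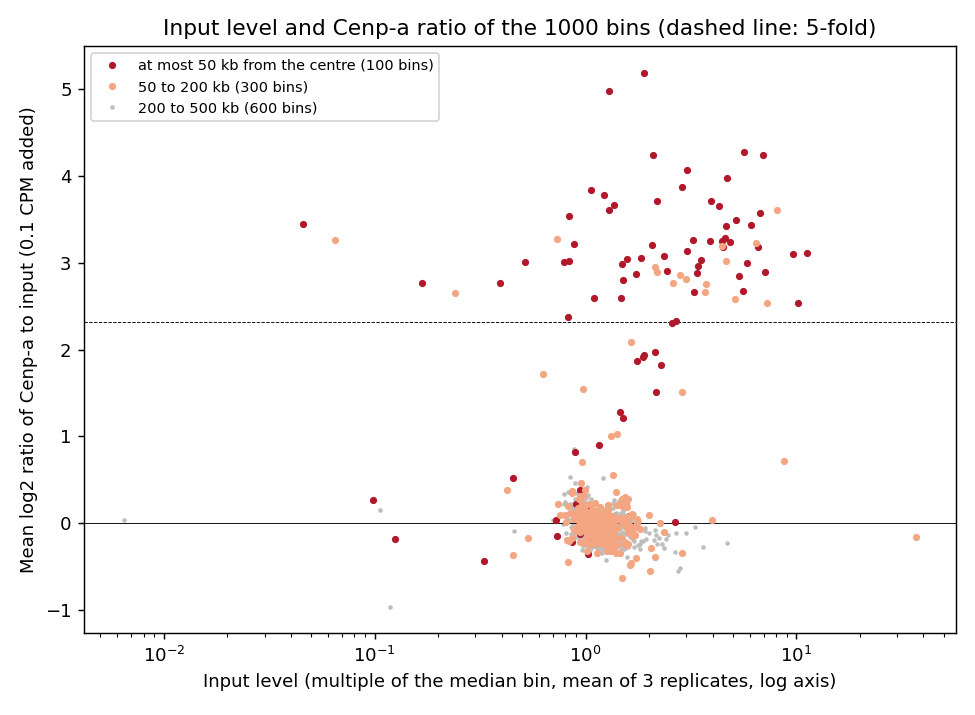
The mean log2 ratio of Cenp-a to input (0.1 CPM added) against the input level as a multiple of the median bin (log axis) for the 1000 member bins, coloured by distance from the centre, with a dashed line at 5-fold. The 74 bins above the line span 0.0457 to 11.2 times the median input, and the bin farthest right, with 36.9 times the median, lies near a log2 ratio of 0.

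Within cores the pattern of bins was shared by the replicates. The log2 ratio of Cenp-a to input correlated between replicates with Pearson's r of 0.98 to 0.99 over 100 core bins, against 0.16 to 0.44 over the 600 bins at 200 to 500 kb and 0.23 to 0.64 over all other bins. The cores were chosen from these same ratios and mix 58 bins of at least 5-fold with bins under it. The correlations are thus descriptions, and nothing is read from their contrast with the other bins. These bins are neighbours on the same chromosomes and are not independent, so no p is given.

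In the fit across all bins by edgeR's quasi-likelihood test, 75 of 999 members tested were higher in Cenp-a than in input at an adjusted p under 0.05 and at least 5-fold, 59 of them in cores and 0 at 200 to 500 kb. The background was 0.0532% of the 144609 bins tested. None of the members was lower, with 0 called by DESeq2, against a background of 0.000692%. At an unadjusted p under 0.05, 85 of 999 members and 13.0% of all bins were lower. Against the histone libraries, H4 of replicate 1 and H3 of replicates 2 and 3, 62 members were higher in Cenp-a, 50 of them in cores, against a background of 0.0429%, and 0 were lower, against a background of 0% (at an unadjusted p under 0.05, 7 members and 3.33% of all bins were lower, and DESeq2 called 0). All Cenp-a libraries lay above every input in 73 of 100 core bins and in 46 of 600 bins at 200 to 500 kb, against 12.3% of all chromosome bins. Both contrasts use the Cenp-a libraries that chose the members, so these counts are descriptions.

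H3 against IgG was the comparison that shared no library with the choice of members. In cores, H3 had 0.167% and 0.200% of its counts in replicates 2 and 3, against 0.158% and 0.160% for IgG. The ratio of H3 to IgG was 1.06 in replicate 2 and 1.25 in replicate 3, a mean of 1.15 ± 0.13 (SD, n = 2). An exact two-sided permutation test of the core shares gave p = 0.333, the smallest value that 2 libraries against 2 allow. At 200 to 500 kb the ratio was 0.964 and 0.974. No member was called higher or lower by edgeR at an adjusted p under 0.05, where 0.00138% of 144608 bins were called higher and 0.00622% lower. An unadjusted p under 0.05 was reached by 24 of 100 core bins in the direction of H3 and by 0 in that of IgG. Over all bins, 2.3% were higher and 2.55% lower at that level. The same level was passed by 36 of all 999 members in the direction of H3 and by 19 in that of IgG. DESeq2 called 1 member higher and 0 lower, against 0.00415% and 0.083% of all bins. The fitted log2 ratio of H3 to IgG was above 0 in 82 of the 100 core bins and in 54.3% of all bins, with a median of 0.21 in cores and 0.02 over all bins. Both H3 values lay above both IgG values in 49 of 100 core bins and in 67 of 600 bins at 200 to 500 kb, against a background of 20.6%. The member with the smallest p was the highest Cenp-a bin of chromosome 7, with a log2 ratio of 0.48 ± 0.14 (SE) and an adjusted p of 0.417 by edgeR. The median member bin had 28 counts in IgG replicate 2, the shallowest library. The part of depth in these counts was not tested.

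The histone libraries exceeded input in cores by an amount that differed between them. Over its paired input, the core ratio was 1.85 for H4 replicate 1, 1.09 for H3 replicate 2 and 1.33 for H3 replicate 3, a mean of 1.43 ± 0.39 (SD, n = 3). The inputs took part in the choice of the centres, so the values of this paragraph and of the comparisons with input below are descriptions. Outside 200 kb the values at 200 to 500 kb were 0.934 for H4 and 0.979 and 0.980 for H3. In the 74 bins of at least 5-fold Cenp-a, H4 was above input in 74, H3 in 60 and 72, and IgG in 45 and 55. These bins were picked for a high ratio of Cenp-a to the same inputs, which favours bins with low input, so nothing is read from these counts. The H4 ratio followed Cenp-a from bin to bin, with a Pearson correlation of the log2 ratios of 0.88 over the 100 core bins. It was 0.43 and 0.73 for H3 and 0.04 and 0.22 for IgG. Such correlations were not confined to cores. Over all other bins they were 0.65 for H4, 0.28 and 0.63 for H3 and -0.02 and 0.16 for IgG. At 200 to 500 kb they were 0.58 for H4, 0.31 and 0.47 for H3 and 0.04 and 0.17 for IgG. H4 shares its input with Cenp-a replicate 1 in these ratios, and each H3 or IgG library shares the input of its own replicate. The order of the histone ratios by replicate was also that of the Cenp-a ratios, highest in replicate 1 and lowest in replicate 2.

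Bin by bin, the number of members called for the histone libraries against input changed with the replicates used and with the method. With all replicates, edgeR called 0 members higher and 0 lower at an adjusted p under 0.05, with 0.00415% of 144600 bins called in each direction. An unadjusted p under 0.05 was reached by 96 members with more histone signal and 74 with less. In cores these were 62 and 0 of 100 bins, against 8.14% and 7.1% of all bins, and at 200 to 500 kb 11 and 48 of 599. Without H3 and input of replicate 2, 82 members were called higher, 59 of them in cores, and 32 lower, none of them in cores, while 3.5% and 3.67% of all bins were called. Without replicate 1 or replicate 3 the count of higher members was 1 or 3, where 0.0339% or 0.0277% of all bins were called higher. DESeq2 with all replicates called 24 members higher, 16 of them in cores, and 2 lower, against 0.0394% and 0.124% of all bins. The member with the smallest p was the highest Cenp-a bin of chromosome 3, with a log2 ratio of 1.01 ± 0.18 (SE) and an adjusted p of 0.0579 by edgeR. It was followed by a bin at -21.6 kb on chromosome 9, with a log2 ratio of 0.66, and a bin at 96.5 kb on chromosome 8, with 0.59. Among lower bins the smallest p was at -473.5 kb on chromosome 8, with a log2 ratio of -0.56 and an adjusted p of 0.0702.

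IgG differed least from input. The core ratio was 1.03 in replicate 2 and 1.07 in replicate 3, a mean of 1.05 ± 0.03 (SD, n = 2). By edgeR 0 members were higher, against a background of 0%, and 0 were lower, against a background of 0.00207% of 144621 bins. An unadjusted p under 0.05 was reached by 14 members in the direction of IgG, 4 of them in cores, and by 5 in that of input, 0 of them in cores, against 0.537% and 0.515% of all bins. By DESeq2 0 were called in either direction. By chromosome the core ratio averaged between 1.00 on chromosome 1 and 1.10 on chromosome 10.

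Around the cores, the bins at 200 to 500 kb as a whole were close to the rest of the chromosomes in Cenp-a. The ratio to input was 0.980 ± 0.014 there, against 0.986 ± 0.004 in all other bins (SD, n = 3 each). By replicate it was 0.966, 0.994 and 0.980 in replicates 1, 2 and 3, against 0.983, 0.990 and 0.986. It was thus lower than in all other bins in replicates 1 and 3 and higher in replicate 2. The ring at 400 to 500 kb was lower in each replicate, with 0.930, 0.963 and 0.956 in replicates 1, 2 and 3, against 0.983, 0.990 and 0.986 in all other bins, and stood at 0.925 ± 0.030 on the side of the lower coordinates. Input in that ring was 1.24 ± 0.01 times the median bin, against 1.17 ± 0.01 in all other bins (SD, n = 3 each). It was 1.34 ± 0.03 on the side of the lower coordinates and 1.145 ± 0.001 on the other side. The part of the input level in the lower ratio was not tested. The outermost bin inside the limit on each chromosome, at 496.0 to 499.9 kb, had log2 ratios of -0.20 to 0.30. The first bin outside, at 500.1 to 504.0 kb, had -0.21 to 0.27. H4 replicate 1 was at 0.899 of input at 400 to 500 kb, and at 0.847 on the side of the lower coordinates, against 0.961 on the other side. There was no second H4 library to give the error of these values.

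Of 1000 members, 2 had under 10 counts in an input library, and 999 passed the filter of the fits. The member with the fewest reads, at bases 21051474 to 21061473 of chromosome 8, held 2, 0 and 16 counts in Cenp-a, against 0, 0 and 9 counts in input, so it gives no ratio of use.

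Genes were sparse in the cores. By the RefSeq annotation of the same assembly (UCB_Xtro_10.0), 113 genes overlapped the members, 76 of them protein-coding and 31 lncRNA genes, with 4 on chromosome 2 and 24 on chromosome 10 as the extremes. A protein-coding gene overlapped 8% of core bins, 32% of bins at 50 to 100 kb, 59.5% at 100 to 200 kb and 66.5% at 200 to 300 kb, against 60.3% of all other bins. Of the 74 bins of at least 5-fold Cenp-a, 1 overlapped a protein-coding gene, which is 1.35%. The annotation gives gene limits but not exons, so the place of a bin within a gene was not analysed.

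**Figure D5:**
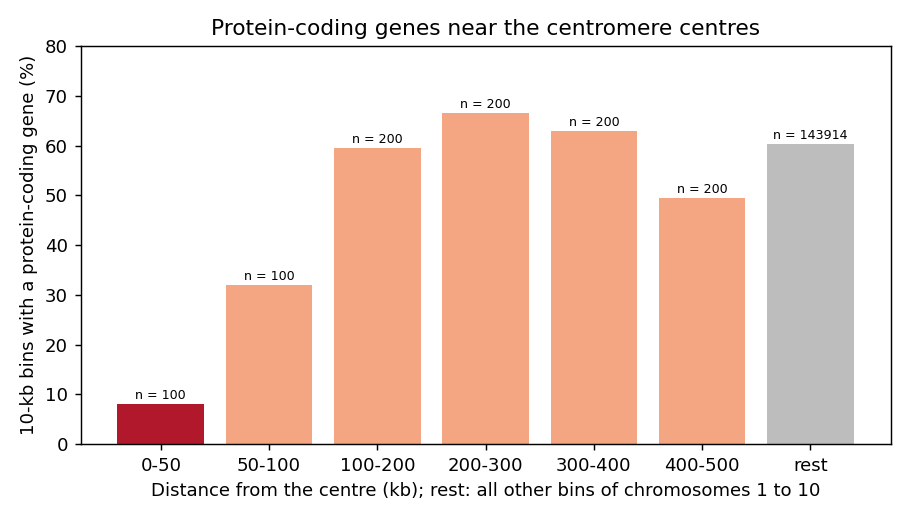
The percentage of 10-kb bins that overlap a protein-coding gene by distance from the centre in kb, with the number of bins above each bar and all other bins of chromosomes 1 to 10 as the last bar. The share is 8% in cores, 32% at 50 to 100 kb and between 49.5% and 66.5% farther out, against 60.3% in the rest.

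The protein-coding gene in an enriched bin was LOC108647623 on chromosome 5, bases 62043394 to 62044416, in the last bin of the block, with a mean ratio of Cenp-a to input of 8.16. The lncRNA gene LOC116406480 on chromosome 4, bases 46563021 to 46564076, crossed the border between a bin of 1.03 and the first bin of the block, of 15.3. The enriched bin starts at base 46563929, so most of the gene lies in the bin of 1.03. Counts per 10-kb bin do not resolve where Cenp-a lies within a bin. On chromosome 1 LOC105947317, bases 89250762 to 89254418, lay in a bin of 2.33-fold, and LOC101733496 ended 23.2 kb from the centre with bins of 0.83- to 1.31-fold.

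On 7 other chromosomes the nearest protein-coding gene was farther off. It was mdm4, which encodes an inhibitor of p53, at 162.7 kb on chromosome 2, with bins of 0.82- to 1.24-fold. On chromosome 3 it was ckap4, a membrane protein of the endoplasmic reticulum, at 74.1 kb with bins of 1.19- and 1.23-fold. On chromosome 6 it was mtrr, the reductase that keeps methionine synthase active, at 98.9 kb with bins of 0.89- to 1.25-fold. On chromosome 10 it was tmc6, of the transmembrane channel-like family, at 61.6 kb with bins of 0.92- to 1.3-fold. On chromosomes 4, 7 and 8 it was LOC116410379 at 56.7 kb, LOC116412422 at 143.0 kb and LOC116406745 at 155.0 kb, with ratios between 0.74 and 1.01. None of these genes reached 2-fold in Cenp-a.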

How the data were processed

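Micrococcal nuclease ChIP-seq libraries of *X. tropicalis* XTN-6 cells were analysed from the deposited table of raw counts per 10-kb bin, whose columns equal the 11 files of single samples. Per the labels and the study's methods, the authors trimmed read pairs with Trimmomatic (version 0.39), aligned them with minimap2 (version 2.17-r941) to the unmasked v10 genome, sorted them with SAMtools (version 1.9) and made the deposited counts with deepTools (version 3.3.0) at any mapping quality. Removal of duplicate reads is not given in the sources used here. No genome sequence was used, so repeats were not analysed. The 10 sequences longer than 1 Mb, sorted by name, are chromosomes 1 to 10, and their last bins end within 182731 bp of the last RefSeq gene. Between 0.0559% and 0.0704% of a library's counts lay on scaffolds and were left out.

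Members were the bins at most 500 kb from the given centres. The members and the lists were chosen with earlier results of these data known. Counts were scaled by the total on chromosomes. Ratios over regions divide summed CPM, and ratios of single bins add 0.1 CPM to both values. A bin entered a fit if 50% or more of its libraries had 10 counts or more. Fits used glmQLFit and glmQLFTest of edgeR (version 4.0.16 in R version 4.3.3) with the replicate as a block, and p-values were adjusted over all bins by the Benjamini-Hochberg method. Calls with Cenp-a needed an adjusted p under 0.05 and at least 5-fold, and calls between controls had no fold minimum. Each comparison was fitted on its own libraries. Shares of H3 and IgG in cores were compared with an exact permutation test. The alternatives were TMM factors, DESeq2 (version 1.42.0), no filter, no block, a 2-fold minimum, other core radii, medians, another pseudocount and each replicate left out.

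The block follows the extract protocol, in which the input is taken from the precleared chromatin that the antibodies then receive. As a check, deviations of log2 CPM from the group means correlated by 0.127, -0.039 and 0.128 between Cenp-a and input of replicates 1, 2 and 3, by 0.145, -0.082 and 0.136 between the histone libraries and input, by 0.042 between H3 and IgG and by -0.0074 between IgG and input. Pairs of unlike number ran from -0.212 to 0.142 between Cenp-a and input and from -0.258 to 0.188 between the histone libraries and input. The check thus does not show that libraries of the same number pair better. With 2 libraries per group all pairs have the same absolute value, so those values cannot show pairing. Replicates of a group differed by 2.06 to 5.56 times counting noise (chi-square per bin). That noise takes all counts as independent, which the mates of a pair and duplicate reads are not. The check thus cannot decide whether a library was sequenced again. Bins were named by rule: the highest bin of each chromosome, runs of at least 5-fold and 2-fold with their edges, the bins on either side of the 500-kb limit, the members with the fewest input counts, the smallest p-values of each control comparison, called bins beyond 100 kb and genes near the centres, not all of which are reported here. The bin with the highest input was added after its value was seen.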

Additional observations from a re-analysis of the deposited data

How the results depend on the processing

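Counts of members called for Cenp-a stayed within 1.5 times the values above under all alternatives run. They were 71 to 89 against input and 59 to 87 against the histone libraries, the highest at a 2-fold minimum. Of all bins, 0.0498% to 0.0899% were called against input and 0.0408% to 0.0622% against the histone libraries. At the 2-fold minimum 1 member was also called lower than input, against 0.0173% of all bins. Without the replicate block the counts were 75 against input and 60 against the histone libraries, with 0 members called in the control comparisons, and the core ratio of group means was 8.87 for Cenp-a to input. For H3 and IgG in cores, the mean of the paired ratios was the value reported, 1.15. No other count of called members moved without the block. Counts at an unadjusted p under 0.05 by edgeR did move. Members higher in H3 than in IgG went from 36 to 21, and lower members from 19 to 14. For IgG against input, higher members went from 14 to 12 and lower members from 5 to 9. Over all bins, the 2 higher and 9 lower bins called for H3 against IgG fell to 0. For the histone libraries against input, the 6 higher bins called fell to 0 and the 6 lower to 1.

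For the histone libraries against input, leaving out a replicate gave 1 to 82 higher members and 0 to 32 lower members, both highest without replicate 2. Of all bins, 0.0277% to 3.5% were called higher and 0.018% to 3.67% lower in these fits. DESeq2 gave 24 higher and 2 lower members for the histone libraries against input, and 1 higher member for H3 against IgG. The cause was not tested. H3 against IgG and IgG against input could not be fitted without a replicate, since no residual degrees of freedom remain.

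The core ratio of Cenp-a to input was 6.01 with a radius of 100 kb, and 7.60 to 10.2 with a replicate left out. The median bin ratio with 1 CPM added was 6.12 in cores, 1.00 at 50 to 100 kb and 1.00 at 100 to 200 kb, and with 0.1 CPM added it was 1.00 and 0.99 in the outer 2 of these rings. A median gives little weight to the few enriched bins of the outer rings. Of 134 alternative values, 120 were counted as the same, by a rule that differed between results. Counts of called members had to stay within 1.5 times the main count. Ratios of Cenp-a to input had to stay within the SD between replicates. Core ratios between the other libraries only had to stay on the same side of 1, so their size was not checked. IgG replicate 2 held 4053600 counts, and its part in the comparisons with IgG was not tested. With 2 libraries per group, the exact test of H3 against IgG could not pass a threshold of 0.05.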
